A study of Rattus norvegicus with 12 samples.

Results

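A group of 27 genes and transcripts was low in rat PC12 cells after 60 min with PACAP38 and had recovered, wholly or partly, by 120 min. They were chosen by their own measured values: a PACAP38 over control fold of at most 0.5 on both arrays at 60 min, a control processed signal of at least 30 on both, and a mean fold of at least 0.6 at 120 min. Zinc finger genes that met the same limits (22 array features for 21 genes) and Nfkbia were left out by the rule, although Nfkbia, at 0.590 after 120 min, would not have passed. Of 41012 array features, 17512 reached the control signal and 158 of them were at most 0.5 on both 60 min arrays. Once the other limits were applied, 27 features were left, each under its own array identifier. Because the 60 and 120 min folds made the choice, they are given below as a description and carry no test.

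PC12 is a line from a rat adrenal pheochromocytoma that stops dividing and grows neurites when exposed to suitable factors. PACAP38 is a neuropeptide whose receptor raises cyclic AMP and calcium, and it sets off the fast rise of immediate early genes. When synthesis of a transcript stops, the copies already present are lost at their own rate of decay, which can itself be regulated. The cells were given PACAP38 at 1e-07 M for 5, 10, 15, 30, 60 or 120 min, and control PC12 cells labelled with the same time were the other side of each comparison. At each time, pooled RNA of treated and control cells was hybridised to 2 arrays with Cy5 and Cy3 exchanged, so the 12 arrays give 1 independent comparison per time point and the difference between arrays is technical. Both times of each pair (5 with 10, 15 with 30, 60 with 120 min) lay on the same of 3 slides, so the steps from 10 to 15 min and from 30 to 60 min are also steps between slides, and time and slide cannot be told apart there. Of the 23 chromaffin and PC12 markers listed, 22 were on the array and all 22 were measured at 60 min, whereas 15 of 21 markers of other cell types were above background in the control RNA on no array. Of the 15 immediate early genes listed, 14 were at least 2-fold higher on both arrays at 60 min and 13 at 120 min. Over all 14371 genes measured, 279 and 531 were so at these times.

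The members fell into 10 with a gene symbol from a RefSeq or Ensembl gene model and 17 without. The named members were Hps6, Mrm3, Bcdin3d, Rnf146, Dbr1, Tp53i13, Rbm12b, Gdpgp1, Abhd18 and Ccdc71l. The 17 unnamed members were listed on the array as expressed sequence tags, assembled cDNA clusters (the TC numbers), an older predicted transcript (XM_345331) or a bare probe. One of them, TC581959, also carries a description of NF-kappa-B inhibitor alpha, and it stayed a member because Nfkbia was left out by gene name. Since a tag has no name to describe it by, the 60-base probes of 5 unnamed members are shown, read 5′ to 3′ as deposited. They include the 4 brightest and AI639510, whose processed PACAP38 signals at 120 min were above those of its control. Positions are those of the array annotation on the rn4 build.
FM094539: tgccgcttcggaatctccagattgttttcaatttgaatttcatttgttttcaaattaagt
FM085873: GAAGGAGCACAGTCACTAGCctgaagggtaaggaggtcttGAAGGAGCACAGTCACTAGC
TC627320: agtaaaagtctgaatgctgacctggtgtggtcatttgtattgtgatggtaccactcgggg
TC612934: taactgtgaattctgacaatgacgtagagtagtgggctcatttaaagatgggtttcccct
AI639510: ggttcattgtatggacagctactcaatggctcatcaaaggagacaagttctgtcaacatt
FM094539 lies at chr7:67226582-67226641 on the plus strand, FM085873 at chr9:73913872-73913931 on the minus strand, TC627320 at chr19:41208899-41208958 and TC612934 at chr1:187978787-187978846, both on the minus strand. AI639510 lies at chr16:84888918-84888977 on the minus strand. Capitals in FM085873 mark a stretch of 20 bases that stands at both ends of the probe, and a repeat of at least 15 bases was present in 28 of the 17512 probes that reached the control signal (0.160%). Apart from that repeat the members' probes were ordinary in composition, with a median GC content of 43.3% in the unnamed and 45.0% in the named members against 43.3% over the 17512.

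At 60 min the fold of the 27 members ranged from 0.190 to 0.489 with a median of 0.389. At 120 min it ranged from 0.603 to 1.54 with a median of 0.729, and over all 17512 features the medians were 0.981 and 0.970. In RNA from whole cultures, fewer cells with a transcript and less of it per cell cannot be told apart. The share of those features at most 0.5 on both arrays at 60 min was 0.902%, the pool from which the rule drew the members. The control RNA was well above background on both 60 min arrays in all 27 members, whereas the PACAP38 RNA was so on both arrays in 18, on 1 array in 5 and on neither in 4. For those 4 the fold is only bounded: XM_345331 was at least 1.27-fold lower, TC581959 at least 1.16-fold, A_44_P782900 at least 1.09-fold and TC612446 at least 1.06-fold lower. The bounds set the control signal against the higher of the member's own PACAP38 signal and the dimmest signal that passed as well above background. Each channel was normalised after normexp background correction with an offset of 50, which draws the bounds towards 1. The folds quoted elsewhere are ratios of processed signals without that offset, so bounds and folds are not on the same scale. When both signals were instead corrected by normexp with an offset of 50, no member was at most 0.5 on both 60 min arrays, and the median log2 fold at 60 min of -1.36 became -0.37 with loess and -0.39 with median centring, with all 27 members below 0. With an offset of 1 and loess, chosen after seeing the data, it was -1.01, and 14 of the 27 had a mean fold of at most 0.5.

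**Figure D1:**
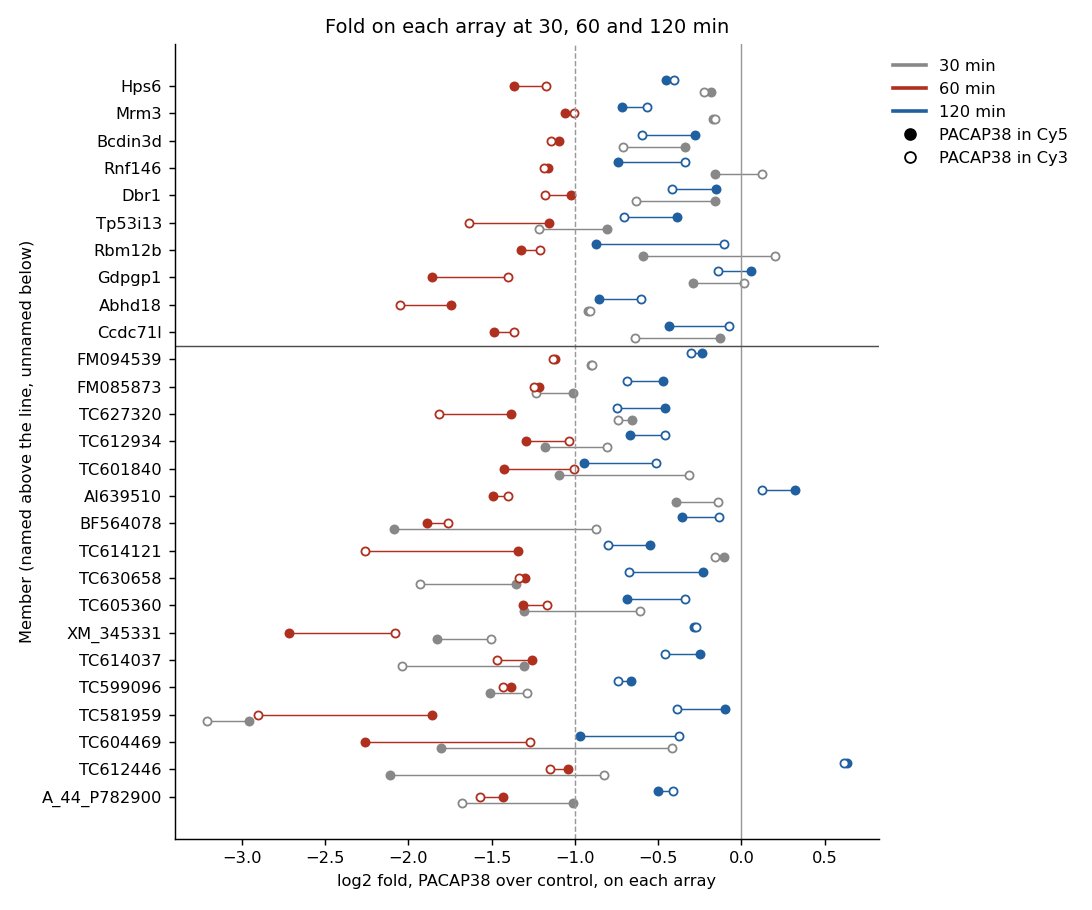
PACAP38 over control fold on each array at 30, 60 and 120 min for the 27 members, on a log2 axis, with filled points for PACAP38 in Cy5 and open points for PACAP38 in Cy3. The dashed line marks a fold of 0.5, which every 60 min point had to reach by the rule, and AI639510 and TC612446 are the members with both 120 min points above 0.

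Hps6, a subunit of the complex that builds lysosome-related organelles, was the brightest member. Its control signal at 60 min was 1254 and 1114 on the 2 arrays and its PACAP38 signal 487 and 493, a fold of 0.388 and 0.443. At 120 min the folds were 0.730 and 0.756, so both later values lay above both earlier ones and below 1. At 5, 10, 15 and 30 min its mean fold was 0.997, 0.952, 0.955 and 0.868.

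Mrm3, a methyltransferase of mitochondrial ribosomal RNA, had control signals of 590 and 628 and PACAP38 signals of 283 and 313 at 60 min. Its folds were 0.479 and 0.498 at 60 min and 0.608 and 0.674 at 120 min. Its mean 60 min fold of processed signals was the highest among the members, but 4 of them have only a bound at that time. After normexp with loess its log2 fold at 60 min was -0.64, lower than the members' median of -0.37. Bcdin3d, a methyltransferase of small RNAs, stood at 0.468 and 0.453 and then at 0.823 and 0.660. Dbr1, the enzyme that opens the lariats left by splicing, stood at 0.491 and 0.441 and then at 0.901 and 0.748. Rbm12b, an RNA-binding protein, had control signals of 120 and 130 and PACAP38 signals of 47.8 and 56.4 at 60 min, a mean fold of 0.416, and its 120 min arrays were further apart, at 0.545 and 0.928. On the member probes of all 4 genes both 120 min values exceeded both 60 min values, and none of them was above 1 at 120 min.

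Rnf146, a ubiquitin ligase that recognises poly(ADP-ribosyl)ated proteins such as axin, had folds of 0.447 and 0.439 at 60 min and 0.599 and 0.791 at 120 min. Gdpgp1, a GDP-glucose phosphorylase, had control signals of 115 on both arrays and PACAP38 signals of 31.9 and 43.6 at 60 min, a fold of 0.276 and 0.378. At 120 min its signals were level, with folds of 1.04 and 0.906. Gdpgp1 was thus the named member with the fullest recovery, and it had been close to 1 at every time up to 30 min, with mean folds of 0.986, 1.05, 0.979 and 0.907.

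Abhd18, an abhydrolase domain protein, had the lowest 60 min fold of processed signals among the named members, 0.299 and 0.242. Its PACAP38 signals of 23.9 and 22.4 were above background on only 1 of these arrays. After normexp with loess its log2 fold at 60 min was -0.32 and that of Hps6 -0.95, so the rank depends on the processing. Abhd18 also had the lowest mean 120 min fold of the 27 (0.603), from arrays at 0.552 and 0.659. Tp53i13, named as a p53-inducible gene, stood at 0.449 and 0.322 at 60 min and at 0.765 and 0.613 at 120 min. Ccdc71l was dim, with control signals of 67.0 and 83.6 at 60 min, and its folds were 0.357 and 0.388 at 60 min and 0.740 and 0.948 at 120 min. Its control RNA was above background on neither array at 5 and 10 min, so its course before 60 min cannot be followed.

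Among the unnamed members, FM094539 had arrays that differed little, at 0.460 and 0.457 after 60 min and at 0.847 and 0.812 after 120 min. FM085873 was at 0.430 and 0.422 and then at 0.720 and 0.621. TC627320 was lower at 60 min, at 0.383 and 0.284, and stood at 0.726 and 0.595 at 120 min. TC612934 was at 0.408 and 0.488 at 60 min and at 0.628 and 0.728 at 120 min. In these 4 tags, which had control signals of 218 to 703 at 60 min, both RNAs were well above background on every array of both times.

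Recovery passed the control level in few members. AI639510 had control signals of 142 and 144 and PACAP38 signals of 50.2 and 54.6 at 60 min, a fold of 0.355 and 0.378. At 120 min its PACAP38 signals of 266 and 218 were above the control signals of 213 and 201, at folds of 1.25 and 1.09. Its mean log2 fold at 120 min of 0.22 was 0.09 after normexp with loess and -0.01 with median centring, where it was no longer above the control. TC612446 went from 0.485 and 0.451 to 1.55 and 1.53, but with control signals of 30.4 and 41.8 at 60 min it was among the dimmest members. Of the 27 members, 24 were still below 1 on both arrays at 120 min, against 40.6% of the 17512 features, and AI639510 and TC612446 were the 2 above 1 on both.

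The values at 5 to 30 min were not used by the rule. Over all members the median log2 fold was 0.14, -0.07, -0.50 and -0.92 at 5, 10, 15 and 30 min, the last a fold of 0.530, while over the 17512 features the median fold stayed between 0.988 and 1.00. At 30 min 24 of 27 members were below 1 on both arrays, against 22.3% of all the features, and none was above 1 on both. The named members had median folds of 0.946 at 15 min and 0.816 at 30 min, and the unnamed ones of 0.653 and 0.459. At 30 min the PACAP38 RNA was above background on neither array in 8 of 17 unnamed and 1 of 10 named members, so these medians mix measured folds with values that are only bounded. Among the 8 named and 7 unnamed members with both RNAs above background on both 30 min arrays, the median folds at 30 min were 0.872 and 0.614. The split by annotation was noticed in these values, and it was not tested. Brightness went with it, since 8 of 10 named but 7 of 17 unnamed members had a control signal of at least 100 on both 60 min arrays, and its part in the split was not tested.

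**Figure D2:**
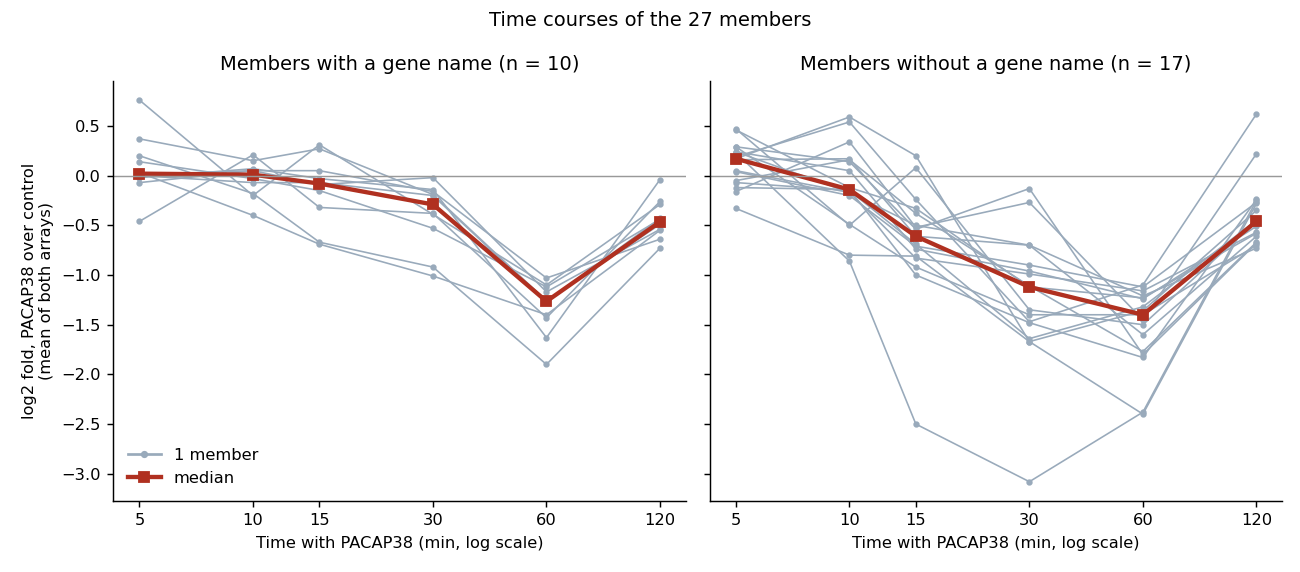
log2 fold of PACAP38 over control against time (log axis) for the 10 members with a gene name and the 17 without. Grey lines are single members (mean of both arrays) and the red line is their median. The named members' median is -0.29 at 30 min and -1.27 at 60 min, and the unnamed members' median is -1.12 at 30 min, where 8 of the 17 had PACAP38 RNA above background on neither array.

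No member was at most 0.5 on both arrays at 5 or 10 min, where 0.00571% and 0% of the 17512 features were. At 15 min TC581959 was the only such member, against 0.0685% of the features. At 30 min there were 7 of 27, all unnamed, against a background of 0.286%: FM085873, TC630658, XM_345331, TC614037, TC599096, TC581959 and A_44_P782900. In FM085873 both RNAs were measured, and its folds were 0.496 and 0.425. In 5 of the other 6 the PACAP38 RNA was above background on neither array, so that their 30 min folds are bounds of at least 1.11-fold to at least 1.19-fold lower, and in A_44_P782900 neither RNA was. Of the 15 members with a control signal of at least 100 on both 60 min arrays, 1 was at most 0.5 on both at 30 min.

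The early timing can be followed in the brighter members. FM094539 had mean folds of 1.03, 0.870, 0.612 and 0.536 at 5, 10, 15 and 30 min. FM085873 had mean folds of 1.37, 0.919, 0.794 and 0.459, and TC612934 of 1.18, 0.888, 0.564 and 0.503. In these 3 tags every value up to 60 min was below the one before. TC627320, also bright, was at 1.12 at 5 and 10 min and then at 0.653 and 0.616. Of the bright named members, Tp53i13 and Bcdin3d had values that were lower at each step. Tp53i13 had mean folds of 1.02, 0.760, 0.620 and 0.496, and Bcdin3d was at 0.694 at 30 min. Abhd18 was dimmer, with mean folds of 1.15, 0.883 and 0.629 up to 15 min and PACAP38 RNA above background on neither array at 30 min, a bound of at least 1.04-fold lower. Rnf146, by contrast, was at 0.988 at 30 min and 0.443 at 60 min, and Mrm3 at 0.894 and 0.489.

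A slope of log2 fold on log2 time was fitted with limma over the 4 time points from 5 to 30 min, each the mean of its 2 arrays. The slope was below 0 in 24 of the 25 members that could be tested, against 54.1% of all features, and 17 of the 25 had a falling slope at an unadjusted p below 0.05, against 3.61% of all 17290 features tested. These were 13 of 16 unnamed and 4 of 9 named members, where 7.04% of all unnamed and 2.49% of all named features tested had such a slope. After Benjamini-Hochberg adjustment over all 17290 features no member passed 0.05, and the share of falling slopes that did was 0%. The smallest p-values belonged to TC599096, with a slope of -0.66 per doubling of time (SE 0.0570, limma adjusted p = 0.196), and FM085873, with a slope of -0.60 (SE 0.0563, limma adjusted p = 0.215). In FM085873 both RNAs were above background on all early arrays, while in TC599096 the PACAP38 RNA was above background on 1 array at 10 and 15 min and on neither at 30 min. Tp53i13 had the best supported slope of the named members, at -0.41 (SE 0.0456, limma adjusted p = 0.247). TC581959 had a slope of -1.36 (SE 0.173, limma adjusted p = 0.302), which rests on PACAP38 signals that were above background on neither array at 15 and 30 min. Among the 14 members with both RNAs above background on all 8 early arrays, 8 had a falling slope at an unadjusted p below 0.05 (57.1%), against 2.77% of the 14172 features that met the same limit. These were 5 of 7 unnamed and 3 of 7 named members, a smaller gap than over all members. With the slide pair as a block the counts were 9 of 25 members and 3.67% of all features.

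The mean log2 fold over the same 4 time points was below 0 in 23 of 25 members, against 53.4% of all features. A lower mean at an unadjusted p below 0.05 was found in 5 of 25, against 3.90% of all features, and after adjustment in none (0% of all features, limma). With the slide pair as a block the unadjusted counts were 12 of 25 members and 4.43% of all features. XM_345331 had the best supported mean, at -0.90 (SE 0.213, limma adjusted p = 0.612) and mean folds of 0.794 and 0.576 at 5 and 10 min. Its 30 min fold of 0.315 entered the mean although the PACAP38 RNA was above background on neither array then, so that at this time it is known only to be at least 1.19-fold lower.

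Each array carries control and PACAP38 RNA in separate channels, so their levels can be followed apart. Scaled to each channel's 75th percentile, the PACAP38 level at 60 min was below its own 5 to 30 min mean in 27 of 27 members, by a median of -1.11 on the log2 scale, which the rule's low 60 min fold largely fixes. The same was so of 60.9% of the 17512 features. The control level differed from its own early mean by a median of -0.16, with 17 members below and 10 above, and this small difference turned to 0.06 when channels were scaled to their median. At 120 min the PACAP38 level differed from its early mean by -0.09 and the control level by 0.02, as medians over the members. After normexp, loess and normalisation of the channels to each other the 60 min differences were -0.31 for PACAP38 and -0.02 for control. Levels across time points rest on arrays normalised one by one and were not tested.

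**Figure D3:**
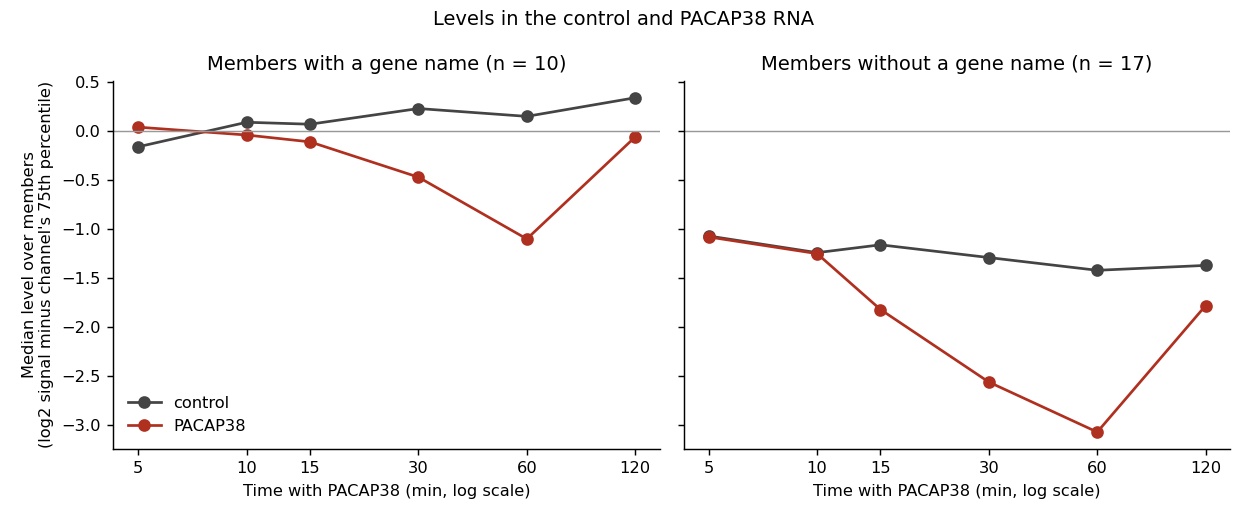
Median level over the members in the control (black) and PACAP38 (red) RNA against time (log axis), as log2 signal minus the 75th percentile of its channel, for named and unnamed members. In the named members the PACAP38 median goes from -0.47 at 30 min to -1.10 at 60 min and -0.06 at 120 min, and in the unnamed members from -2.56 to -3.07 and -1.78.

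The members were set beside the other features that were at most 0.5 at 60 min. Without zinc finger genes, 27 of 113 such features recovered to the limit at 120 min. The 86 that did not had median folds of 0.857 at 15 min and 0.720 at 30 min, higher than the members' 0.708 and 0.530, but they held more named genes. Within the unnamed, the features that stayed low had median folds of 0.663 and 0.533 at these times and the members 0.653 and 0.459. Within the named, the values were 0.961 and 0.823 for those that stayed low and 0.946 and 0.816 for the members. A falling early slope at an unadjusted p below 0.05 was present in 30 of 41 unnamed and 12 of 44 named features that stayed low (73.2% and 27.3%), beside the members' 13 of 16 and 4 of 9 (81.2% and 44.4%). The difference between the features that recovered and those that did not was not tested at these times. The 22 zinc finger features under the same limits had median folds of 1.02 at 15 min and 0.849 at 30 min, beside 0.946 and 0.816 in the named members, and 5 of 22 had a falling early slope at an unadjusted p below 0.05 (22.7%). These differences were not tested.

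Of the 50 features at most 0.5 on both arrays at 30 min, 39 had no gene name, although such features were 25.1% of the 17512. The share was 0.888% of unnamed and 0.0838% of named features at 30 min, and 1.34% and 0.755% at 60 min. At 120 min it was 2.91% and 4.04%. These differences between unnamed and named features were not tested.

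The unnamed members were placed against their nearest named gene on the array's coordinates. For 16 of 17 a named probe with a control above background on both 60 min arrays lay within 60 kb, at a median distance of 5390 bases, and 11 of the 16 were on the same strand. These neighbours had a median fold of 0.968 at 30 min and 0.775 at 60 min, against 0.988 and 0.981 over all 17512 features. Nfkbia was the only 1 of the 16 at most 0.5 on both 60 min arrays, against 0.902% of the features. The lower median of the neighbours at 60 min was not tested. Dctn2, a dynactin subunit 9415 bases from FM094539, was at 0.943 at both times, while FM094539 was at 0.536 and then at 0.459.

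TC581959 carries the array's description of NF-kappa-B inhibitor alpha, the product of Nfkbia, and its probe lies 222 bases from the Nfkbia probe on the same strand of chromosome 6. Across 15, 30, 60 and 120 min, TC581959 had mean folds of 0.177, 0.118, 0.193 and 0.844 and Nfkbia of 0.963, 0.896, 0.284 and 0.590. The PACAP38 RNA of TC581959 was above background on neither array at 15, 30 and 60 min, where its folds are bounds of at least 1.18-fold, 1.14-fold and 1.16-fold lower, so its size relative to Nfkbia at these times is not settled. Whether TC581959 reports a part of the Nfkbia transcript was not tested.

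AI639510 lies 100 bases from a probe of Lig4, the DNA ligase of non-homologous end joining, on the opposite strand. The Lig4 probe was at 0.976 at 30 min, 0.506 and 0.494 on the 60 min arrays and 1.34 and 1.40 on the 120 min arrays, and it missed the limit on 1 array by a small margin. Of the other Lig4 probes, one was at 0.508 and 0.470 at 60 min and at 0.930 and 0.963 at 120 min, and a dimmer one was at 0.554 and 0.575 and then at 1.45 and 1.73, so the probes of Lig4 disagree on whether it stood above its control at 120 min. XM_345331 lies 346 bases from a probe of Trub2, a pseudouridine synthase, on the same strand. Trub2 was at 0.777 at 60 min. XM_345331 had only a bound of at least 1.27-fold lower then, which carries the offset of 50 and cannot be set against the Trub2 fold. At 120 min Trub2 was at 0.490 and XM_345331 at 0.824. FM085873 lies 5104 bases from Zfp142 on the same strand, and Zfp142 had mean folds of 0.577, 0.751 and 1.27 across 30, 60 and 120 min.

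**Figure D4:**
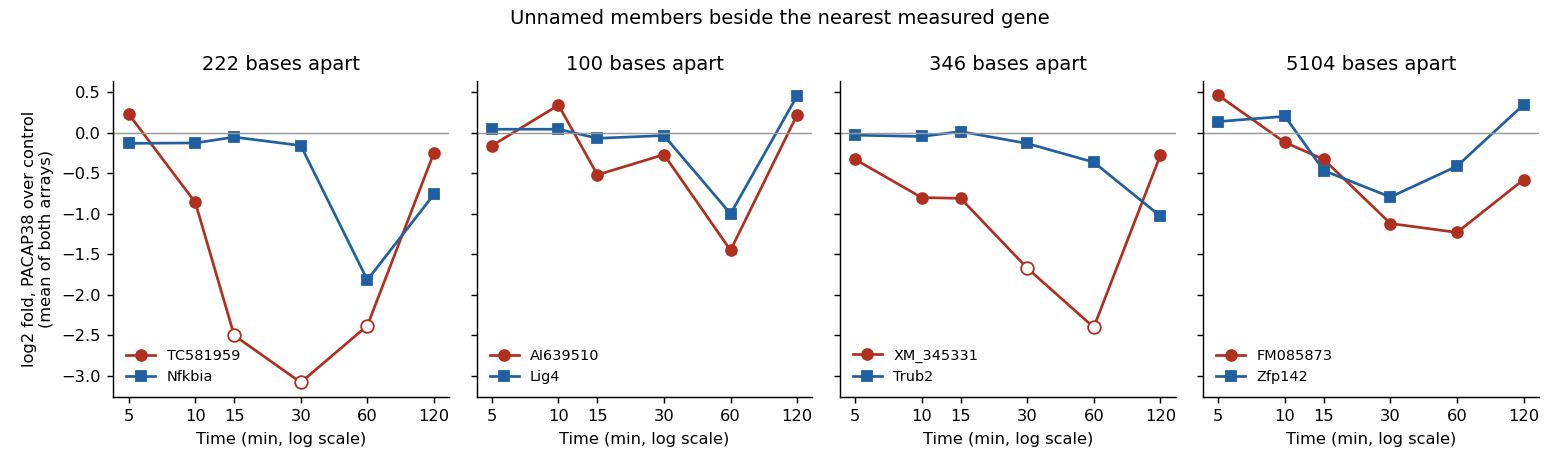
log2 fold of PACAP38 over control against time (log axis, mean of both arrays) for 4 unnamed members (red) and the nearest measured named gene (blue). Open red points are times at which the member's PACAP38 RNA was above background on neither array, so that their height is not a measured level. AI639510 and this Lig4 probe share a low at 60 min and stand above 0 at 120 min, and at 120 min XM_345331 is at 0.824 and Trub2 at 0.490.

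Other probes were present for 5 of the 10 named members. The additional Mrm3 probe was at 0.481 and 0.509 at 60 min and 0.793 and 0.667 at 120 min, where the member probe was at 0.608 and 0.674. The additional Dbr1 probe was brighter (mean control signal 646) and at 0.475 and 0.611 at 60 min, but at 0.469 and 0.687 at 120 min, so the recovery of Dbr1 rests on 1 of its 2 probes. An Abhd18 probe with a mean control signal of 53.5 was at 0.862 and 0.734 at 60 min and at 0.696 and 0.353 at 120 min, so it was lower at the later time, unlike the member probe, and the recovery of Abhd18 rests on the member probe alone. The remaining probes of Abhd18, Rnf146 and Ccdc71l had a control RNA above background on at most 1 of the 60 min arrays.

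Many features lay close to the limits. TC601840 and Mrm3, both with a higher 60 min fold of 0.498, and Dbr1 at 0.491 were just inside. TC620333 at 0.502, Bet1l at 0.503 and Med7 at 0.504 were just outside, with 120 min folds of 0.995, 0.687 and 0.713. At the 120 min limit, Abhd18 at 0.603, TC601840 at 0.604 and TC599096 at 0.615 were inside and TC621744 at 0.597, TC598110 at 0.591 and TC639781 at 0.579 were outside. At the signal limit, TC612446 at 30.4, A_44_P782900 at 32.1 and TC581959 at 57.9 were the lowest inside, and TC642089 at 24.8 was the closest outside.

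Among the features whose 6-point course was most like the members' median course, by Pearson's r over the time points over 13930 features measured on all arrays, were Kctd18 (r = 0.993) and Cbfa2t3 (r = 0.993). The points share arrays and slides and the likeness ignores size. Kctd18 was at 0.616 and 0.496 at 60 min and Cbfa2t3, a transcriptional corepressor, at 0.507 and 0.290, each past 0.5 on 1 array.

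None of the 9 pathway lists held a member. Only 10 of the 13119 named features that reached the control signal were members, so lists of this length were unlikely to hold one. The rule also left out Nfkbia, a gene of the NF-kappa-B list, by name. At 60 min 14371 genes were measured and 1.01% were at most 0.5 on both arrays. FoxO targets had 1 of 18 measured genes so lowered, Wnt targets 1 of 11, BMP and TGF-beta targets 1 of 12, NF-kappa-B targets 1 of 9 and p53 targets 1 of 12, and YAP targets, the Notch pathway, immediate early genes and mRNA decay genes had none of 4, 6, 15 and 22. By the words of their descriptions, Rnf146 counted as a ubiquitin ligase part (3.89% of the named features), Rbm12b as RNA processing (2.96%) and Mrm3 and Bcdin3d, through the word methyltransferase, under chromatin (2.77%), although both methylate RNA. The other 6 named members met no class.

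RefSeq promoters, 300-base windows around the start on the GRCr8 build, were available for 9 of the 10 named members. Their median GC content was 64.7%, against 61.0% over 7440 promoters of measured genes and 51.7% over all 33469. Motifs were searched on both strands. The full cyclic AMP response element TGACGTCA, through which cyclic AMP acts on many genes, was in the promoter of Mrm3 alone, and in 3.32% of the promoters of measured genes and 1.83% of all. The shorter core TGACG, which lies within the full element, was again in Mrm3 alone, 1 of 9 against 34.4% and 21.2%. The Egr motif GCGNGGGCG was in Tp53i13 (9.69% of measured genes and 4.98% of all) and the TATA box TATAAA in Rnf146 (6.25% and 14.2%). The E-box CANNTG was in 5 of 9 (61.9% and 72.1%), and the AP-1 motif TGANTCA (4.78% and 7.33%) and the CArG box (1.06% and 1.64%) were in none. The Mrm3 promoter, at chr10:61593937-61594236 on the plus strand, is shown because it held the full element, in capitals.
Mrm3 promoter: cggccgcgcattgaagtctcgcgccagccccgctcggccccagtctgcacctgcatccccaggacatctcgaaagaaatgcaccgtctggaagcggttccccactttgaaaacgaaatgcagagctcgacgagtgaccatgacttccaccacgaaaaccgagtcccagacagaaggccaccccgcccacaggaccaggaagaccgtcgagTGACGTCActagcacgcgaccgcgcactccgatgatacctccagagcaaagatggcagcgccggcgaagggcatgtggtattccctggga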

How the data were processed

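The members and gene lists were chosen with earlier results of these data known. Pooled RNA of PC12 cells was hybridised by the authors to Agilent 44K rat arrays in dye-swapped pairs, and scanned files were made with Agilent Feature Extraction (12.0.3.1 per the file headers, 11.0.1.1 per the submitters' processing notes). The deposited processed signal intensity was background-subtracted and dye-normalised, and the authors' spot p-value and log10 ratio were read beside it. The deposited value table held the same log10 ratios (Cy5 over Cy3), and each was turned to PACAP38 over control. Control spots and outlier-flagged spots (197 to 267 per array) were left out, no spot was saturated, and spots well above background made up 38.4 to 49.6% of each channel. Intensities carry no count depth, and the number of arrays limits the precision. With 1 pooled comparison per time, single times were not tested. The early mean and slope were fitted with limma 3.58.1 in R 4.3.3 (lmFit and eBayes, Benjamini-Hochberg over all features with either RNA above background), after a check on simulated data. The text names the 10 members with a gene name and 13 of the 17 without, more than the 2 identifiers first planned for these and chosen after their values were seen, and the other 4 enter the counts, medians and plots. It also names some of their nearest measured genes, the features nearest each limit and those most alike in course, of which 1 is not reported here. Alternatives were normexp (offset 50, or 1 as added after seeing the data) with loess or median centring, other limits, single arrays, and single times left out.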

Additional observations from a re-analysis of the deposited data

Results flagged for a closer look

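AI639510 was below its control on both arrays at 60 min (mean fold 0.366) and above it on both at 120 min (mean fold 1.17), and its difference between the times was not tested. Its mean log2 fold at 120 min, 0.22, was 0.09 after normexp with loess and -0.01 after normexp with median centring. TC612446 was likewise below at 60 min (0.468) and above at 120 min (1.54) on both arrays, with PACAP38 RNA above background on neither 60 min array, and this difference was not tested either.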

How the results depend on the processing

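Normexp with an offset of 50 adds to both signals, which by construction draws the ratios of dim features towards 1. After normexp with loess or with median centring, 0 members were at most 0.5 on both 60 min arrays, though all 27 stayed below 0. Their median log2 fold across 30, 60 and 120 min was then -0.15, -0.37 and -0.12 with loess and -0.14, -0.39 and -0.17 with median centring. The 30 min count was 0 under both, against 7. With loess and an offset of 1, chosen after seeing the data, the limits left 15 features, 7 of them among the 27 members, the medians were -0.56, -1.01 and -0.35, and the 30 min count was 1. The number of members was 11 at a 60 min limit of 0.4 and 92 at 0.6, 15 with a control signal of at least 100 and 59 with none, 46 and 9 at a 120 min limit of 0.5 and 0.8, 76 by the geometric mean of both arrays and 49 with zinc finger genes kept. On single arrays it was 109 to 150 and the 30 min count 8 to 13, while the median log2 fold was -0.92 to -0.74 after 30 min, -1.34 to -1.33 after 60 and -0.45 to -0.41 after 120. The early mean passed the adjusted threshold in 2 members on the arrays with PACAP38 in Cy3 alone, where 950 features passed, and 99 passed with PACAP38 in Cy5 alone. Without 5 min it passed in 8 features, and the early slope, 1 feature in the main setting, passed in 4 after loess. The members with a falling slope at an unadjusted p below 0.05 numbered 11 of 25 without 30 min (2.64% of all features) and 9 of 25 after median centring (2.15%). The deposited value table, flagged spots kept and control RNA above background left the 27 members as they were. The control level at 60 min changed from -0.16 to 0.06 with median scaling, so its direction is not settled. No paired analysis was possible because both arrays of a time point carry the same 2 RNA pools and the replicate number names the dye.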
